A study of Mus musculus with 6 samples.

Results

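The genes described here are 10 regulators of oxidative metabolism, namely the PGC-1 coactivators Ppargc1a and Ppargc1b, the nuclear receptors Ppara, Ppard, Esrra, Esrrb and Esrrg, the mitochondrial biogenesis factors Nrf1 and Tfam, and the corepressor Nrip1. They were chosen by gene symbol, and all 10 were found among the 56748 genes of the count table and all 10 passed the filter on low counts that left 13888 genes for testing. RNA-seq had been done on heart tissue, 1 library per mouse, in 3 mice of the Pontin cTG genotype and 3 of their WT littermates. The transgene is human Pontin cDNA with a flag tag, driven in cardiomyocytes by the αMHC promoter on a C57Bl/6 background. All mice of both genotypes were males, 10 weeks old at the start, and received angiotensin II (Ang-II) at 1.5 mg/kg BW/day from a mini-osmotic pump for 14 days, so the comparison is between genotypes under Ang-II and no untreated heart is part of it. Pontin (Ruvbl1) is an ATPase of chromatin remodelling complexes.

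PGC-1α and PGC-1β, the products of Ppargc1a and Ppargc1b, do not bind DNA themselves. They are recruited to nuclear receptors and other factors and raise the transcription of genes for fatty acid oxidation, the citric acid cycle and the respiratory chain. PPARα is the main fatty acid sensing receptor of the heart muscle cell. The estrogen-related receptors (ERRs) bind the promoters of respiratory chain genes without a known natural hormone. NRF1 drives nuclear genes of mitochondrial biogenesis, among them Tfam, whose protein packages mitochondrial DNA and helps to start its transcription. RIP140, the product of Nrip1, is recruited to the same receptors and represses these programmes.

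None of the 10 regulators differed between Pontin cTG and WT hearts at an adjusted p under 0.05 by edgeR's quasi-likelihood test, against 0% of the 13888 genes tested. For Nrip1 all 3 Pontin cTG hearts were below all 3 WT hearts and the other 9 members overlapped between genotypes, while 8.33% of all genes tested did not overlap, so that 1 of 10 is near the share over all genes. Fold changes on the log2 scale (Pontin cTG minus WT) were above 0 for 3 members and below 0 for 7, with a median of -0.18, while the median over all genes tested was 0.0013. Without Pontin cTG replicate 2 the members' median was 0.082, with 8 members above 0 and 2 below.

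In that mouse 8 of the 10 members had their lowest value of the 6 libraries, which was the case for 30.7% of all genes tested. Pontin cTG replicate 2 also stood apart in the rest of its transcriptome. On the first principal component, which held 48.6% of the variance, it lay at 50.9 while the other 5 libraries lay between -23.1 and 16.2. Nppa, the foetal and stress gene for atrial natriuretic peptide, had 7716 normalised counts in it and 360.4 to 1842 in the others. Cardiomyocyte genes went both ways in it. Ryr2, the calcium release channel of heart muscle, had 10842 against 16789 to 24380, and Pln was also at its lowest (20990). Tnnt2 (82380), Myl2 (92482) and Tcap (15977) were at their highest of the 6 libraries. Library totals were 12436822 to 13194038 counts in WT and 14584102 to 16888124 in Pontin cTG hearts, and 23.8 to 26.7% of the counts fell on mitochondrial genes. Longer transcripts tended to be lower in Pontin cTG replicates 2 and 3 than in the other libraries. The correlation across genes between transcript length and deviation from the mean was 0.11 to 0.18 (Spearman) in the WT libraries, 0.084 in Pontin cTG replicate 1, -0.20 in replicate 2 and -0.16 in replicate 3. The log2 fold change of all genes had its median at 0.11 for transcripts under 2 kb and at 0.052 for 2 to 4 kb. It was -0.019 for 4 to 8 kb and -0.11 for those over 8 kb. Of the 10 members 8 were longer than 4 kb, 6 of them in the class of 4 to 8 kb. The other 2, Nrf1 and Nrip1, were over 8 kb. The part of length in the members' differences was not tested, and genes are not independent replicates in such a correlation. The fold changes of the 10 members are therefore given with and without Pontin cTG replicate 2.

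**Figure D1:**
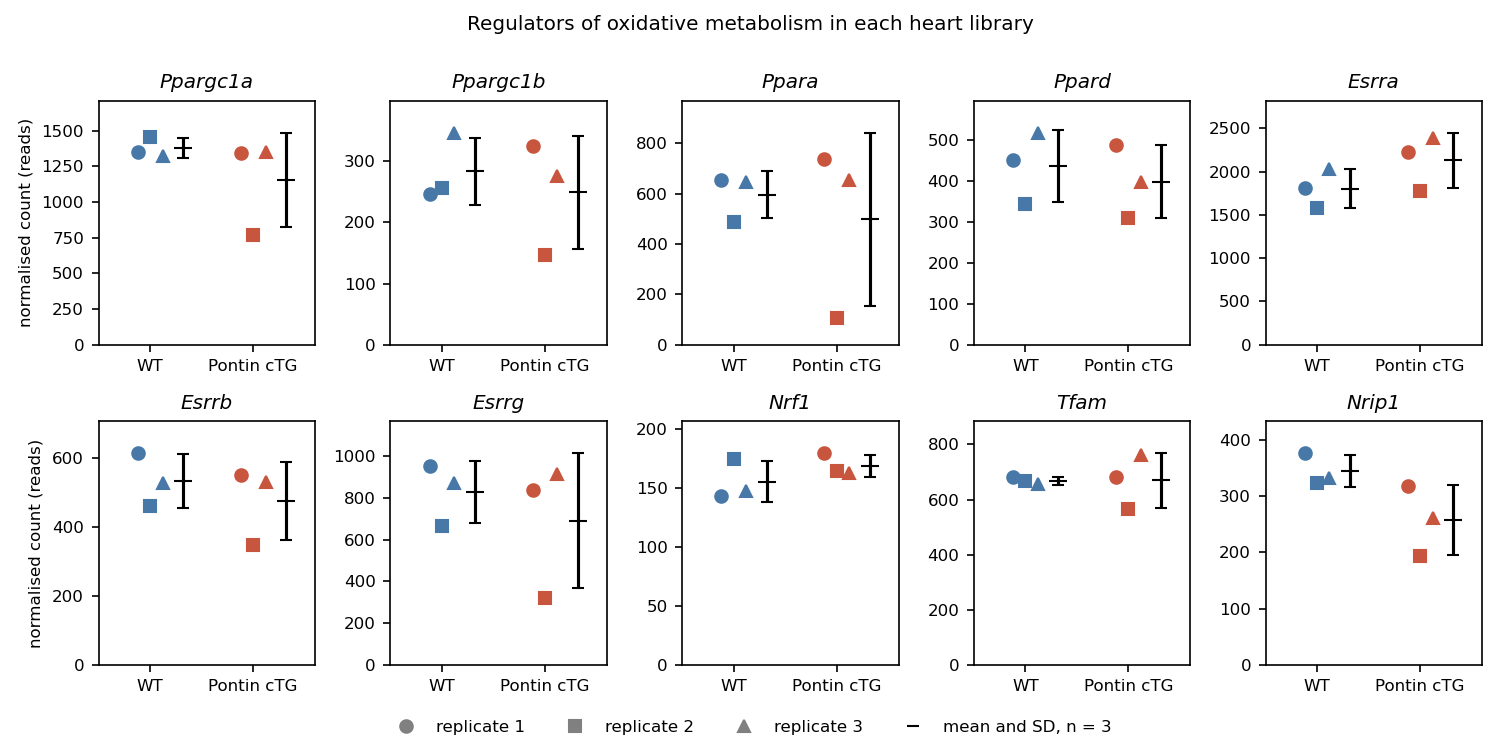
Normalised counts (vertical axis, reads, from 0) of the 10 regulators in each library, by genotype on the horizontal axis, with the replicate number as the symbol and the mean with its SD beside each group of 3. The square of Pontin cTG replicate 2 is the lowest point in 8 of the 10 panels, and in the panel of Nrip1 all 3 Pontin cTG points lie below all 3 WT points.

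The heart libraries were checked against markers of the cell types that heart tissue can hold. The 8 cardiomyocyte markers summed to between 638163 and 755831 normalised counts in WT and between 630377 and 703919 in Pontin cTG hearts, and Myh6, the α-myosin heavy chain whose promoter drives the transgene, alone had 192476 to 338851. The sums of 6 fibroblast markers ran from 15001 to 26765 in WT and from 13883 to 26962 in Pontin cTG hearts, with WT replicate 2 and Pontin cTG replicate 2 at the top of their groups. The 5 endothelial markers summed to 14930.2 in Pontin cTG replicate 2 and to 10447 to 12299.9 in the other libraries. The 5 macrophage markers summed to between 2261 and 3693 in WT and between 1658 and 2424 in Pontin cTG hearts, and the 5 smooth muscle and pericyte markers to between 13048 and 14906 in WT and between 12735 and 13278 in Pontin cTG hearts. The 8 adipocyte markers summed to 9391 in Pontin cTG replicate 2 and to 5919 to 6583 elsewhere, but almost all of this was Fabp4 and Cidea, since Adipoq had at most 3.37 normalised counts, Plin1 at most 2.93 and Ucp1 none in any library. The 4 atrial markers summed to 7759 in Pontin cTG replicate 2, nearly all of it Nppa, and to 387 to 1866 elsewhere. Myl7 and Sln, defining markers of atrial muscle, were at or near 0 in all libraries. The smooth muscle marker Tagln was also near 0 (5.20 to 15.4), although Acta2 of the same list had 1978 to 2808. A count near 0 thus need not mean absence from the tissue sequenced. The 5 red blood cell markers summed to between 13186 and 22338 in WT and between 11695 and 21216 in Pontin cTG hearts. The part of these cell type differences in the members' values was not tested, and in bulk heart tissue fewer cells of a type and less RNA per cell cannot be told apart. The mouse gene Ruvbl1 had 216, 221 and 217 normalised counts in the WT hearts and 249.9, 250.02 and 239.95 in Pontin cTG hearts, a log2 fold change of 0.18 (SE 0.12, edgeR adjusted p = 0.999). Since the transgene is of human sequence, its reads may not have been assigned to this gene, and the value is no measure of the transgene.

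Sequence upstream of the members was inspected to show the elements that these factors are known to bind. Windows of 250 bases before to 50 bases after each annotated start, from RefSeq on GRCm38.p6, were at hand for 9 of the 10 members, 15 windows in all. The windows were searched on both strands for 4 motifs. The NRF1 motif GCGCATGCG was present in 1.75% of the 32851 windows of all genes, the ERR response element TCAAGGTCA in 0.423%, the GABP site CCGGAAGT in 3.89% and the cAMP response element TGACGTCA in 1.79%. Among the members only Tfam and Ppara held a match. The windows of these genes are shown with the matched letters in capitals. Tfam had the lowest (0.139) and Ppara the highest (0.474) biological coefficient of variation of the 10 members in edgeR's fit. Nrf1, which held no match, had 0.143, and a link between motif and variation was not tested. The Tfam window lies on the minus strand at chr10:71237995-71238294 and holds the GABP site at bases -47 to -40 from the start. The Ppara window lies on the plus strand at chr15:85735526-85735825 and holds the NRF1 motif on both strands, overlapping, at bases -31 to -23 and -30 to -22.
Tfam: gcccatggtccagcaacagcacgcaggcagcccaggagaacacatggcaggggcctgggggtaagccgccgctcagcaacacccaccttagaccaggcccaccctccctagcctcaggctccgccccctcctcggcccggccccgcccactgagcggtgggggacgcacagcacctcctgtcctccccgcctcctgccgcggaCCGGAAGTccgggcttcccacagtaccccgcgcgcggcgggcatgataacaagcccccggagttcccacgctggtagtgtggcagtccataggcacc
Ppara: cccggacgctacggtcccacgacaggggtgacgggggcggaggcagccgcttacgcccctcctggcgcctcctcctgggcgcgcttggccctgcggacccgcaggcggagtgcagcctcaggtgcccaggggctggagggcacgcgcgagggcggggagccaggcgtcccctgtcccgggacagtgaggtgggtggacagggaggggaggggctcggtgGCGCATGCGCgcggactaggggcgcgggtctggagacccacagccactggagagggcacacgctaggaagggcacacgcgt
A match in these letters is a description of the window and says nothing of binding in these hearts. The windows of Ppargc1a, Ppard, Esrra, Esrrb, Esrrg, Nrf1 and Nrip1 held none of the 4 motifs.

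Among the coactivators, Ppargc1a (ENSMUSG00000029167, chr5:51611592-51725068 on the minus strand, GRCm39) had 1353, 1456 and 1325 normalised counts in the WT hearts and 1341, 771 and 1349.6 in the Pontin cTG hearts. Pontin cTG replicates 1 and 3 lay within the WT range, and only replicate 2 was below it. The means were 1378 ± 69.1 (SD, n = 3) and 1154 ± 332 (SD, n = 3), and the log2 fold change was -0.26 (SE 0.21, 95% interval -0.73 to 0.22, edgeR adjusted p = 0.999). Without Pontin cTG replicate 2 it was -0.035 (SE 0.10, edgeR adjusted p = 0.979). Ppargc1b (ENSMUSG00000033871, chr18:61431207-61533502 on the minus strand) had 247, 257 and 347 normalised counts in the WT hearts and 325, 146 and 275 in Pontin cTG hearts. Its WT and Pontin cTG values overlapped, and the same mouse was again the lowest. The log2 fold change was -0.19 (SE 0.27) and turned to 0.083 (SE 0.17) without that mouse. Pprc1, the gene of the third and more distant PGC-1 family member, had a log2 fold change of -0.076 (SE 0.21), and Perm1, a muscle protein induced by PGC-1 and ERRs, had one of -0.072 (SE 0.20).

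Per kilobase of transcript, Ppargc1a made up 66.6, 68.2 and 60.5% of the PGC-1 family's reads in WT hearts and 60.4, 61.5 and 67.6% in Pontin cTG hearts. The share was thus within the same range in both genotypes, also in Pontin cTG replicate 2, in which Ppargc1a and Ppargc1b were both low.

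Of the 10 members Ppara had the widest scatter. Ppara (ENSMUSG00000022383, chr15:85619184-85687020 on the plus strand) had 655, 488 and 645 normalised counts in WT hearts and 737, 105 and 654 in Pontin cTG hearts. Pontin cTG replicate 1 was above the WT range, replicate 3 near its top and replicate 2 far below all other libraries, with 123 raw reads against 435 to 755 in the others. The means were 596 ± 93.8 (SD, n = 3) and 499 ± 343 (SD, n = 3), and the log2 fold change of -0.26 had an SE of 0.56 and a 95% interval from -1.54 to 1.03. Without Pontin cTG replicate 2 the value was 0.22 (SE 0.14, edgeR adjusted p = 0.889), so that a single library decided its sign. Ppard (ENSMUSG00000002250, chr17:28451674-28520448 on the plus strand), the ubiquitous PPAR, had 450.4, 342 and 516 normalised counts in the WT hearts and 486, 309 and 396 in Pontin cTG hearts. The groups overlapped, and the log2 fold change was -0.14 (SE 0.20) with all libraries and 0.015 (SE 0.17) without Pontin cTG replicate 2.

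Pparg, the adipogenic PPAR, was not low in that mouse. It had 113, 112 and 159.9 normalised counts in the WT hearts and 120.1, 168 and 152 in Pontin cTG hearts, a log2 fold change of 0.19 (SE 0.21). Per kilobase, Ppara made up 63.5, 60.4 and 57.8% of the PPAR reads in WT and 64.6, 21.9 and 62.0% in Pontin cTG hearts, while Pparg made up 45.3% in Pontin cTG replicate 2 and 13.7 to 18.8% in the other 5 libraries. The composition of the PPAR family thus differed in 1 heart and overlapped between the genotypes.

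**Figure D2:**
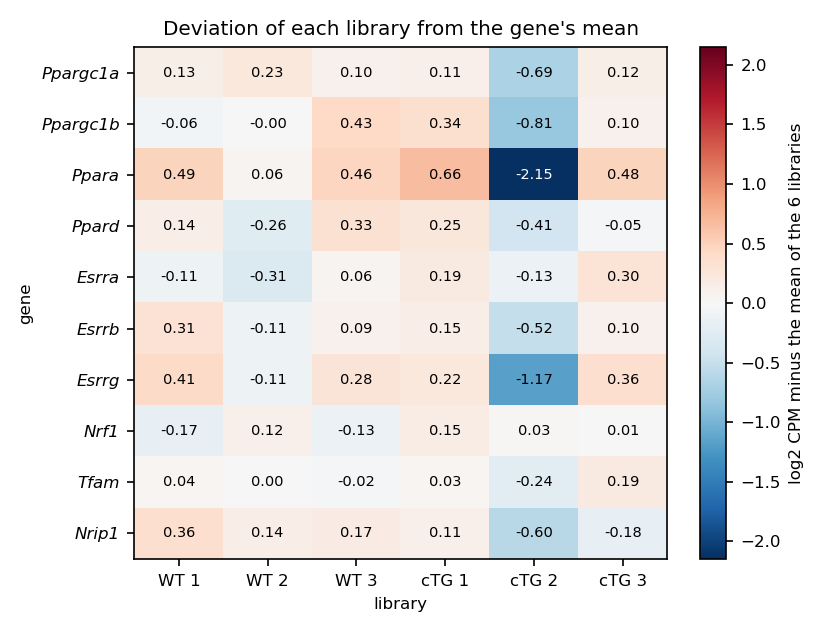
Deviation of each library (columns) from the mean of the 6 libraries, in log2 CPM, for each of the 10 regulators (rows), blue below and red above the mean. The column of Pontin cTG replicate 2 holds the lowest value of the figure, -2.15 for Ppara, followed by -1.17 for Esrrg.

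Esrra differed from Esrrb and Esrrg in the sign of its fold change with all libraries. Esrra (ENSMUSG00000024955, chr19:6888345-6899208 on the minus strand), the most abundant of the 10 per kilobase, had 1809, 1576 and 2026 normalised counts in WT hearts and 2225, 1774 and 2390.0 in Pontin cTG hearts. Pontin cTG replicates 1 and 3 lay above all WT hearts, and replicate 2 lay inside the WT range. The log2 fold change was 0.24 (SE 0.16, 95% interval -0.13 to 0.61, edgeR adjusted p = 0.999). Without Pontin cTG replicate 2 it was 0.36 (SE 0.12), with an unadjusted edgeR p of 0.0146 and an adjusted p of 0.889, in a fit in which 4.91% of all genes had an unadjusted p under 0.05. It was 0.15 when either Pontin cTG replicate 3 or WT replicate 2 was left out. On GENCODE M21, 73 exonic bases of Esrra (1.66%) overlap Trmt112 on the opposite strand, and reads there cannot be assigned without strand. Trmt112 had 1152 reads over the 6 libraries.

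Esrrb (ENSMUSG00000021255, chr12:86407891-86568402 on the plus strand) had 613, 459 and 527 normalised counts in the WT hearts and 549.7, 346 and 530.1 in Pontin cTG hearts. Esrrg (ENSMUSG00000026610, chr1:187340988-187947082 on the plus strand), the ERR that is prominent in oxidative muscle, had 953, 664 and 873 in WT and 837, 319 and 917 in Pontin cTG hearts. For both genes Pontin cTG replicates 1 and 3 were inside the WT range and replicate 2 was below it. The log2 fold changes were -0.17 (SE 0.20) for Esrrb and -0.26 (SE 0.34) for Esrrg, and without Pontin cTG replicate 2 they were 0.019 (SE 0.13) and 0.080 (SE 0.15).

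The share of each ERR gene in the family's reads is free of library size, and here the values of the 2 genotypes did not overlap. Esrra made up 61.7, 66.1 and 66.8% of the ERR reads per kilobase in WT hearts and 69.1, 78.7 and 69.7% in Pontin cTG hearts, so that every Pontin cTG value was above every WT value. Esrrb made up 15.3, 14.1 and 12.7% in WT and 12.5, 11.2 and 11.3% in Pontin cTG hearts, and Esrrg 23.1, 19.8 and 20.5% in WT and 18.5, 10.1 and 19.0% in Pontin cTG hearts. Both were lower in every Pontin cTG heart than in any WT heart. The groups stay apart without Pontin cTG replicate 2 and with reads not divided by length, where Esrra had 53.6 to 59.1% in the WT group and 61.6 to 72.7% in the other. The 3 shares add up to 100% and are a single pattern, and no test was made of them. The gaps between the groups are small (66.8 to 69.1% for Esrra, 12.7 to 12.5% for Esrrb). In the PGC-1 and PPAR families the shares overlapped, and no background share over other families was computed. With 3 hearts per group the smallest p of an exact permutation test is 0.1, so such a gap is weak evidence. Esrra has the shortest transcript of the 3 (4414 bases, against 6047 for Esrrb and 6208 for Esrrg), and the part of the length trend of the Pontin cTG libraries in these shares was not tested.

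**Figure D3:**
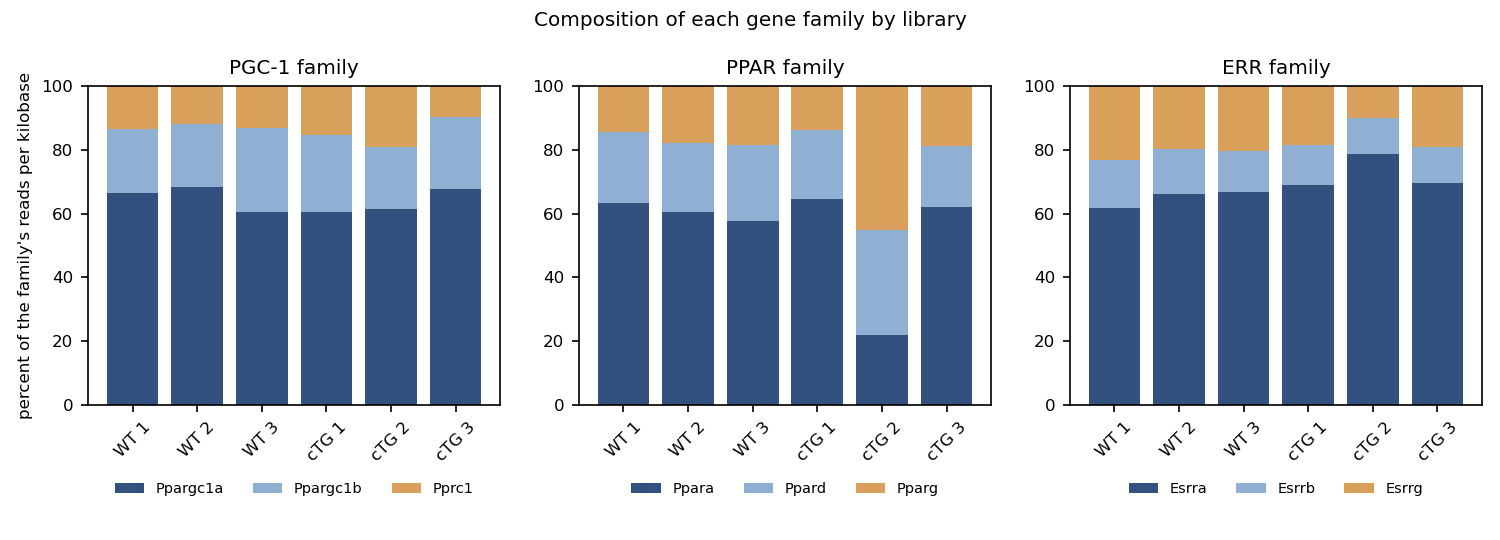
Percent of the reads per kilobase of the PGC-1, PPAR and ERR families taken by each gene (vertical axis, stacked from 0 to 100%) in each of the 6 libraries (horizontal axis). Esrra takes 61.7 to 66.8% of the ERR reads in the WT hearts and 69.1 to 78.7% in the Pontin cTG hearts, and Pparg takes 45.3% of the PPAR reads in Pontin cTG replicate 2.

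The mitochondrial biogenesis factors varied little. Nrf1 (ENSMUSG00000058440, chr6:30047987-30153457 on the plus strand), nuclear respiratory factor 1, had 143, 175 and 148 normalised counts in the WT hearts and 179.6, 164 and 163 in Pontin cTG hearts. The groups overlapped through WT replicate 2, and the log2 fold change was 0.12 (SE 0.15, 95% interval -0.22 to 0.46) and 0.14 (SE 0.16) without Pontin cTG replicate 2. Tfam (ENSMUSG00000003923, chr10:71061294-71074110 on the minus strand) had 683, 666 and 655 in WT and 682, 564 and 761 in Pontin cTG hearts. The Pontin cTG hearts spread to both sides of the WT hearts, whose SD was 13.9 against 99.2 in Pontin cTG hearts (n = 3 each). Its log2 fold change was 0.0028 (SE 0.14, 95% interval -0.31 to 0.32) and 0.11 (SE 0.11) without Pontin cTG replicate 2.

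Nrip1 (ENSMUSG00000048490, chr16:76084288-76170715 on the minus strand) was lower in the Pontin cTG hearts by the widest margin of the 10 members. It had 377, 324 and 332 normalised counts in WT hearts and 317, 194 and 261 in Pontin cTG hearts. All 3 Pontin cTG hearts were below the lowest WT heart, by a narrow gap between 317 and 324. An exact permutation test of 3 against 3 hearts gives a two-sided p of 0.1, the smallest it can give. The log2 fold change was -0.42 (SE 0.18, 95% interval -0.84 to -0.0040), with an unadjusted edgeR p of 0.0483 and an adjusted p of 0.999, and 2.05% of all genes reached an unadjusted p below 0.05. With DESeq2 the test gave an unadjusted p of 0.0630 for Nrip1 and put no member under 0.05. Omitting Pontin cTG replicate 2 gave a log2 fold change of -0.25 (SE 0.14, edgeR adjusted p = 0.889), and the value was below 0 in all 14 alternatives, between -0.59 and -0.25. Nrip1 has the longest transcript of the 10 (11457 bases), in the length class whose median log2 fold change was -0.11 with all libraries and -0.086 without Pontin cTG replicate 2.

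**Figure D4:**
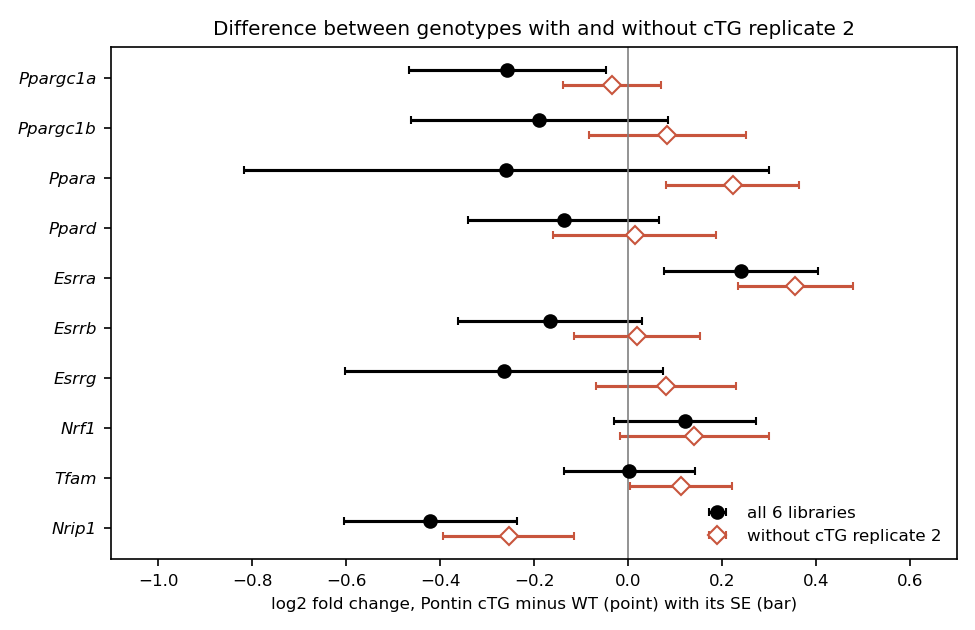
Log2 fold change of each regulator, Pontin cTG minus WT (horizontal axis), with its standard error, from all 6 libraries (filled circles) and without Pontin cTG replicate 2 (open diamonds). Of the 7 genes left of 0 with all libraries, Ppargc1a and Nrip1 stay left of 0 without that library, and Nrip1 is the farthest left in both.

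Set against each other per kilobase of transcript, the mean levels over the 6 hearts ran from Esrra (446 normalised counts per kilobase) through Ppargc1a (192), Tfam (151), Ppara (143), Esrrg (123), Esrrb (83.4), Ppargc1b (66.7), Ppard (55.5) and Nrip1 (26.3) to Nrf1 (15.8). Of the neighbours in this order, only Esrra with Ppargc1a and Ppard with Nrip1 had ranges over the 6 libraries that did not overlap. Among the WT hearts alone, Ppargc1a and Tfam, Esrrg and Esrrb, and Nrip1 and Nrf1 were also apart, while Tfam and Ppara, Ppara and Esrrg, Esrrb and Ppargc1b, and Ppargc1b and Ppard overlapped. Transcript lengths are those of the table, which join all exons of a gene, and such levels depend on them.

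How the members varied with each other over the 6 hearts depended in part on Pontin cTG replicate 2. The Pearson correlation of log2 CPM was 0.95 between Ppargc1a and Ppara with all 6 libraries and -0.91 with the 5 others. Between Esrrb and Esrrg it was 0.97 and 0.88, between Ppara and Esrrg 0.98 and 0.79, and between Nrf1 and Tfam -0.016 and 0.12. The genes whose values over the 6 libraries were most like those of Ppargc1a were Pdxdc1 (r = 0.998), Gm5422 (r = 0.997) and Usp15, a deubiquitinase (r = 0.997), and 394 genes had an r over 0.95 with it. For Ppara these were Rcan2, a calcineurin regulator, Uprt and Atg9a, a membrane protein of autophagy, all with an r over 0.99, and 660 genes had an r over 0.95. For Esrra they were Rasl2-9 (r = 0.997), Cc2d1a (r = 0.994) and Eci1, an enzyme of unsaturated fatty acid oxidation (r = 0.989), with 59 genes over 0.95. These values are descriptions over 6 points that share their libraries and normalisation. The lists of like genes were made with all 6 libraries only. In Pontin cTG replicate 2 Ppara deviated by -2.15 and Ppargc1a by -0.69 on the log2 scale. Genes low in that library can therefore reach a high r with them.

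Around the members stand their partners and upstream regulators, a list of 33 genes, all tested. None passed an adjusted or an unadjusted p of 0.05, 12 had a log2 fold change above 0 and 21 below, and the median was -0.073. In 17 of the 33 Pontin cTG replicate 2 was the lowest library, and without it the median was 0.049. Mef2c, a muscle transcription factor that acts on the Ppargc1a promoter, was lower in all 3 Pontin cTG hearts than in any WT heart, with 1236, 1121 and 1198 normalised counts in the WT hearts and 1067, 867 and 1003 in Pontin cTG hearts, a log2 fold change of -0.28 (SE 0.13, edgeR adjusted p = 0.999). Its transcript is also long, and it was the single gene of the 33 whose groups did not overlap, against 8.33% of all genes tested. The acetyltransferase p300 (Ep300) had a log2 fold change of -0.42 (SE 0.20), the acetyltransferase GCN5 (Kat2a), which silences PGC-1α, one of 0.24 (SE 0.16), and Gabpb1, the GABP subunit without DNA binding, one of 0.16 (SE 0.16).

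Downstream of Nrf1 and Tfam, the 15 genes of mitochondrial DNA transcription and replication were split, with 8 above 0, 7 below, a median of 0.029 and none under an unadjusted p of 0.05. Ssbp1, which coats single-stranded mitochondrial DNA, was higher in every Pontin cTG heart (313, 331 and 305 normalised counts) than in any WT heart (279.7, 268 and 293), with a log2 fold change of 0.18 (SE 0.12), and was the single gene of the 15 with groups apart, against 8.33% of all genes tested. Lonp1, the mitochondrial matrix protease, had a log2 fold change of 0.17 (SE 0.14), Tfb1m, a methyltransferase of mitochondrial ribosomal RNA, one of -0.14 (SE 0.22) and the low-count transcription termination factor Mterf1a one of -0.51 (SE 0.44).

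Of 28 PPAR target genes 27 were tested, Vnn1 being too low. Of these, 11 were above 0 and 16 below, with a median of -0.011 and none under an unadjusted p of 0.05. Among the 27 the genotypes were apart for 3, near the 8.33% of all genes tested, of which Fabp3, a fatty acid binding protein, had a log2 fold change of 0.19. Slc27a1, a fatty acid transporter, was higher in Pontin cTG hearts (1513, 1644 and 1692 normalised counts for WT, 1774, 1803 and 2345 for Pontin cTG), with a log2 fold change of 0.29 (SE 0.15, edgeR adjusted p = 0.999). Cpt1a, the liver-type carnitine palmitoyltransferase that admits fatty acids to the mitochondria, was lower (846, 969 and 855 in WT, 834, 736 and 716 in Pontin cTG), with a log2 fold change of -0.22 (SE 0.13). Plin5, which coats lipid droplets in oxidative tissues, had a log2 fold change of 0.23 (SE 0.14), and Ucp3, an uncoupling protein homologue of muscle mitochondria, one of -0.19 (SE 0.17). In 18 of the 27 genes Pontin cTG replicate 2 was the lowest library, and without it 21 were above 0, 6 below, and the median was 0.14, with 5 genes (Acaa2, Slc27a1, Acot1, Mlycd and Plin5) at an unadjusted p under 0.05, against 4.91% of all genes, and none at an adjusted p under 0.05. In that fit 12 of the 27 were apart in the upward direction, against 11% of all genes. The library left out was the lowest in 18 of the 27 but in 30.7% of all genes tested. Its omission therefore raises this list more often than the genes at large, and the 11% is no like comparator. This bears on the 21 above 0 as well.

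The ERR target genes, which share Acadm, Pdk4 and Cpt1b with the PPAR list, were mostly above 0 with all libraries and, like the PPAR targets, without Pontin cTG replicate 2. Of 25 listed symbols 23 were in the table and tested, 15 above 0 and 8 below, with a median of 0.13. The absent symbols, Atp5f1b and Atp5po, are other names of Atp5b and Atp5o, which were among the 23. None passed an unadjusted p of 0.05. The Pontin cTG values were above all WT values for 5 of the 23 genes (Sdhb, Cox6a2, Atp5o, Slc25a4 and Ckmt2) and below for none. Of all genes tested 4.7% were apart in the upward direction. The lowest library was WT replicate 2 for Sdhb, Cox6a2, Slc25a4 and Ckmt2 and WT replicate 1 for Atp5o. Leaving out WT replicate 2 lowered the list's median to 0.074, and leaving out WT replicate 3 raised it to 0.17. Cox6a2, the muscle subunit of cytochrome oxidase, had 12839, 10885 and 12592 normalised counts in the WT hearts and 13026, 16816.5 and 14375 in Pontin cTG hearts, a log2 fold change of 0.28 (SE 0.15, edgeR adjusted p = 0.999). Cox5b, another subunit of that enzyme, had a log2 fold change of 0.31 (SE 0.17). At the other end stood Mfn2, which fuses mitochondria, with -0.23 (SE 0.22), and citrate synthase, Cs, with -0.11 (SE 0.17), and both were lowest in Pontin cTG replicate 2. Without that library 22 of the 23 were above 0, with a median of 0.18, but only Sdhb had an unadjusted edgeR p under 0.05. In that fit 15 were apart in the upward direction, which then held for 11% of all genes. The library left out was the lowest in 10 of the 23, against 30.7% of all genes tested. The 11% is thus no like comparator here either. Of the 23 genes 5 have transcripts under 2 kb, where the median over all genes was 0.11 with all libraries and 0.048 without Pontin cTG replicate 2.

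**Figure D5:**
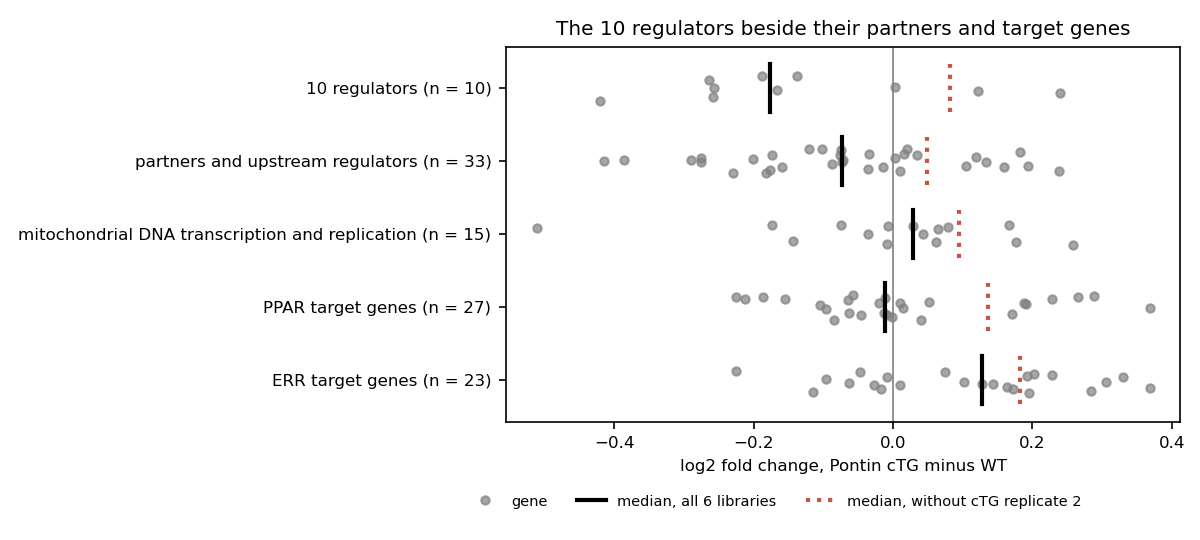
Log2 fold change, Pontin cTG minus WT (horizontal axis), of each of the 10 regulators and of each tested gene of 4 lists of their partners and targets (grey points, n in the row labels), with the median from all 6 libraries (solid bar) and without Pontin cTG replicate 2 (dotted bar). The medians of the 10 regulators (-0.18) and of the ERR target genes (0.13) lie on opposite sides of 0, and without that library all 5 medians are above 0.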

How the data were processed

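RNA was extracted with Trizol from hearts of 3 Pontin cTG and 3 WT mice. The authors deposited raw counts per gene, whole numbers with no normalisation, in 1 table of 6 matched columns (0 unmatched). The submitters' processing notes name fastp, HISAT2, featureCounts and GRCm39/mm39, whereas the study's methods name Trimmomatic, STAR and mm10 with Gencode annotation. The table's coordinates were printed as GRCm39. Whether counting used strand, and how multi-mapping reads were treated, is not given in the sources used here.

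Counts were filtered with filterByExpr (minimum count 10), scaled by TMM and tested by quasi-likelihood in edgeR 4.0.16 in R 4.3.3, robust fit, genotype as the only term, Benjamini-Hochberg adjustment over 13888 genes. The common biological coefficient of variation was 0.197. Standard errors are the log2 fold change over the root of F, and 95% intervals use the t distribution of the fit. A normalised count is the count per TMM-scaled library, brought back to a common library size. DESeq2 1.42.0, limma 3.58.1, other scalings, filters, a replicate block and the omission of each library were alternatives. The procedure was tested on simulated data with planted changes larger than those of the members, no outlying library and no length trend. That test therefore does not bear on changes as small as the members' or on these features. The 10 members, the gene lists and the genes named (2 per list and direction by smallest p) were chosen with earlier results of these data known. The lists are textbook genes, and no set test was made. P-values set the difference between genotypes against the estimated spread between these mice. Every pair of libraries differed by more than sampling noise (chi-square per gene of at least 5.54). The study's methods mention the removal of an outlier without naming the library, and all 6 were kept. Proteins were not analysed here.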

Additional observations from a re-analysis of the deposited data

How the results depend on the processing

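None of the 10 members passed an adjusted p of 0.05 under any of the 14 alternatives, and of 140 member values 127 kept their direction and 13 changed sign. The number of genes called in all was 0, and it was 1 with DESeq2 (Scd4), 3 without a filter on low counts (Tfrc, Scd4 and Npc1) and 3 with limma-voom and sample quality weights (Scd4, Egr1 and Impact), none of them a member and all named after their values were seen. Leaving out 1 library gave 0 to 3 genes, the 3 (Scd4, Egr1 and Impact) without Pontin cTG replicate 2. Tfam, whose value lay near 0, was -1.89e-05 with DESeq2, -0.0039 without a filter and -0.0079 with the replicate block, and Ppargc1b was 0.094 with limma-voom. Leaving out 1 library at a time, the log2 fold change ran from -0.42 to 0.083 for Ppargc1b, from -0.65 to 0.22 for Ppara, from -0.30 to 0.015 for Ppard, from -0.28 to 0.019 for Esrrb, from -0.52 to 0.080 for Esrrg and from -0.10 to 0.11 for Tfam. The highest of each came without Pontin cTG replicate 2, and the cause was not tested. Esrra stayed above 0, at 0.15 with Pontin cTG replicate 3 left out and 0.36 with replicate 2 left out as its extremes. The median over the 10 members was lowest, -0.34, when Pontin cTG replicate 1 was omitted and highest, 0.082, when replicate 2 was omitted. No source used here states that equal replicate numbers share a litter. The deviations of same-numbered libraries correlated at 0.077, 0.43 and 0.19, and 2 of 6 libraries correlated best with their own number. Deviations taken within groups of 3 hearts cannot settle whether the numbers pair the libraries. With the replicate block 0 genes and 0 members were called, 523 genes against 285 had an unadjusted p under 0.05, and the members' median was -0.21. Without division by length the mean share of Ppara in WT was 51.5% in place of 60.5%, and that of Esrra 57.0% in place of 64.9%. With 3 hearts per group the SEs of the members' log2 fold changes were 0.14 to 0.56, and the 95% intervals of all members but Nrip1 spanned 0.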
